A study of Mus musculus with 8 samples.

Results

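The genes described here are the collagen chains and a group of matrix genes of connective tissue, as measured in RNA of mouse BMDMs (macrophages differentiated in culture from bone marrow). They were chosen as every gene symbol made of Col, a number, the letter a and a number, 43 in all, plus 14 symbols for matrix glycoproteins, small proteoglycans, a crosslinking enzyme, growth factor receptors and CCN proteins. Together these are 57 of the 17364 genes measured. The members are defined by their symbols.

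The study compared macrophages of wild-type mice with macrophages of mice carrying the allele Sept2C111A, which by its name changes a cysteine of septin 2, a GTP-binding protein of the cytoskeleton, to alanine. Its title places the question in inflammation and migration of macrophages and in S-nitrosylation of septin 2. mRNA captured on oligo(dT) beads was sequenced from 4 libraries per genotype. TNF-α, an inflammatory cytokine, was present at 30 ng/ml over 24 h in both genotypes, so wild type here means treated wild type. All 8 samples are labelled as BMDMs, but the extraction protocol attached to them describes the handling of aortic tissue as well as of BMDMs. The labels do not say that the 4 libraries of a genotype came from separate mice or cultures, so p-values measure the spread between these libraries, which may be technical.

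Totals ran from 19543973 to 21288521 counts per library. A gene without a read lay below 0.140 to 0.159 CPM (the usual CPM scale of RNA-seq, on normalized library sizes), the level of 3 counts, a limit that covers counting error only. Septin2 measured 228, 226, 216 and 234 CPM in wild-type and 187, 195, 207 and 163 CPM in Sept2C111A libraries, and gene counts do not show the base change. The 10 macrophage identity genes, among them Lyz2, Csf1r and Cd68, summed to 23851 to 25611 CPM in wild-type and 21422 to 23574 CPM in Sept2C111A libraries. In edgeR 0 of the 10 were called at an adjusted p under 0.05, beside 3.03% of all tested genes lower and 3.43% higher. At an unadjusted p under 0.05, 5 of the 10 were lower and 3 higher, beside 12.5% and 12.3% of all tested genes. DESeq2 called 2 of the 10 lower and 2 higher. It called 5.99% of all tested genes lower, and 48.6% of its 1450 calls were higher.

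Collagens are proteins built from 3 chains wound into a helix, secreted by connective tissue cells and assembled outside them. Fibrillar collagens form the ropes of bone, skin and tendon, type IV forms the sheet of basement membranes, and other types link or coat these structures. In bone marrow cultures they are classically made by fibroblast-like stromal cells. Macrophages are better known for taking up and degrading matrix, although Fn1 and Thbs1, which encode fibronectin and thrombospondin 1, are also made by macrophages.

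RNA of these genes took up 1.14, 0.993, 1.21 and 1.09% of the counts of wild-type libraries 1 to 4 and 0.929, 0.685, 0.603 and 0.997% of those of Sept2C111A libraries 1 to 4. Every Sept2C111A library except library 4 lay below every wild-type library in this share, and library 4 exceeded only wild-type library 2. In CPM the genes summed to 10888 ± 956 in wild type and 8137 ± 1557 in Sept2C111A (± is the SD of 4 libraries throughout), a ratio of 0.747. Each library measures a whole culture, so fewer cells of a type and less RNA per cell cannot be told apart.

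Of the 57 genes, 41 passed the filter on low counts and 16 did not. Among the 41, 39 had a negative log2 fold change for Sept2C111A over wild type, against 48.2% of all 12462 tested genes. The median was -0.41, a change of -24.6% in level, beside 0.01 over all tested genes. In edgeR's quasi-likelihood test, with Benjamini-Hochberg adjustment over all tested genes, 9 of the 41 fell and 0 rose at an adjusted p under 0.05, where 3.03% of all tested genes were called lower and 3.43% higher. At an unadjusted p under 0.05, 28 were lower and 1 was higher, beside 12.5% and 12.3% of all tested genes, and the one was Col9a3. DESeq2, limma voom and limma voom with sample weights called 19, 10 and 21 of the 41 lower and 0 higher. The same tools called 5.99%, 3.22% and 5.44% of all tested genes lower. Below, fell, rose and called refer to edgeR, and calls by another tool are named as such. The 9 were Col27a1, Col5a3, Postn, Fstl1, Col4a5, Col1a1, Col5a2, Col18a1 and Fbn1. The genotypes did not overlap, with Sept2C111A lower, for 11 of the 41, against 8.47% of all tested genes, and for 0 of the 41 were they apart with Sept2C111A higher, also 8.47% of all tested genes. The 9 calls depended on single libraries: 1 remained without wild-type library 1 or 3 (Col27a1), 2 without Sept2C111A library 2, 3 without wild-type library 4 or Sept2C111A library 3, and 4 without wild-type library 2, where Col1a2 was called in addition. Those fits called 0.827% (without wild-type library 3) to 2.45% (without Sept2C111A library 3) of all tested genes lower. Without Sept2C111A library 4 there were 27 calls, all lower, and the 9 were among them. In that fit 7.81% of all tested genes were called lower.

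**Figure D1:**
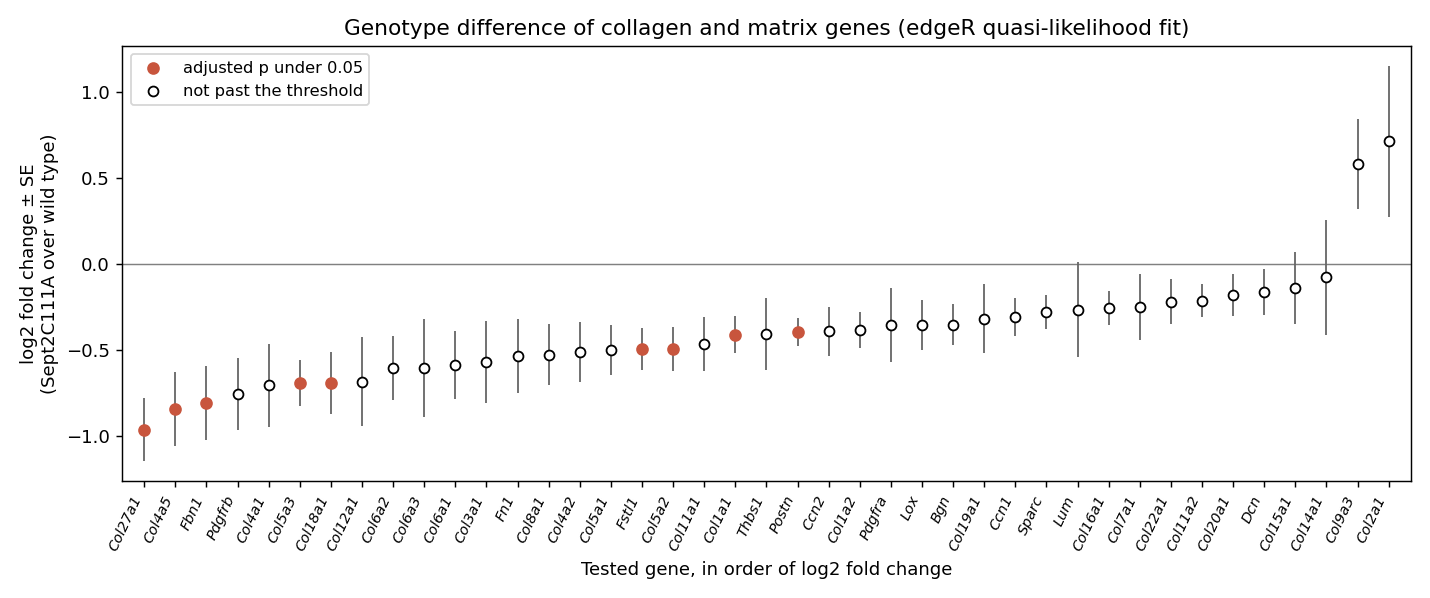
Log2 fold change of Sept2C111A over wild type with its SE (vertical axis) for the 41 tested genes in order of size (horizontal axis), with the 9 called genes as filled points. Col27a1 stands at the low end at -0.96, and Col9a3 and Col2a1 are the 2 points above 0.

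Col1a1 and Col1a2 encode the 2 chains of type I collagen, the main collagen of bone and skin, and were the most abundant of the 57 in CPM. Col1a1 measured 2141, 1680.1, 2264 and 2139.6 CPM in wild-type libraries 1 to 4 and 1722, 1426, 1379 and 1654 CPM in Sept2C111A libraries 1 to 4. Col1a2 measured 2046, 1716, 2175 and 2072 CPM in wild-type libraries 1 to 4 and 1718, 1456, 1299 and 1672 CPM in Sept2C111A libraries 1 to 4. For both genes Sept2C111A library 1 was just above wild-type library 2 and the other Sept2C111A libraries were below every wild-type library. Col1a1 fell (log2 fold change -0.41, SE 0.107, adjusted p = 0.045), and Col1a2 just missed the threshold (log2 fold change -0.38, SE 0.105, adjusted p = 0.054), which it passed in DESeq2 and in limma voom with sample weights. Leaving out wild-type library 1, 3 or 4, or library 2 or 3 of Sept2C111A, ended the call of Col1a1 (adjusted p up to 0.17 over these and the other alternatives that ended it). The 2 chains kept nearly the same proportion in all libraries. Their ratio, Col1a1 over Col1a2 in CPM, was 1.05, 0.979, 1.04 and 1.03 in wild-type libraries 1 to 4 and 1.00, 0.979, 1.06 and 0.989 in Sept2C111A libraries 1 to 4, ranges that overlap. Together they made up 37.2% ± 1.51 of the summed CPM of the 57 genes in wild type and 38.3% ± 3.15 in Sept2C111A.

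**Figure D2:**
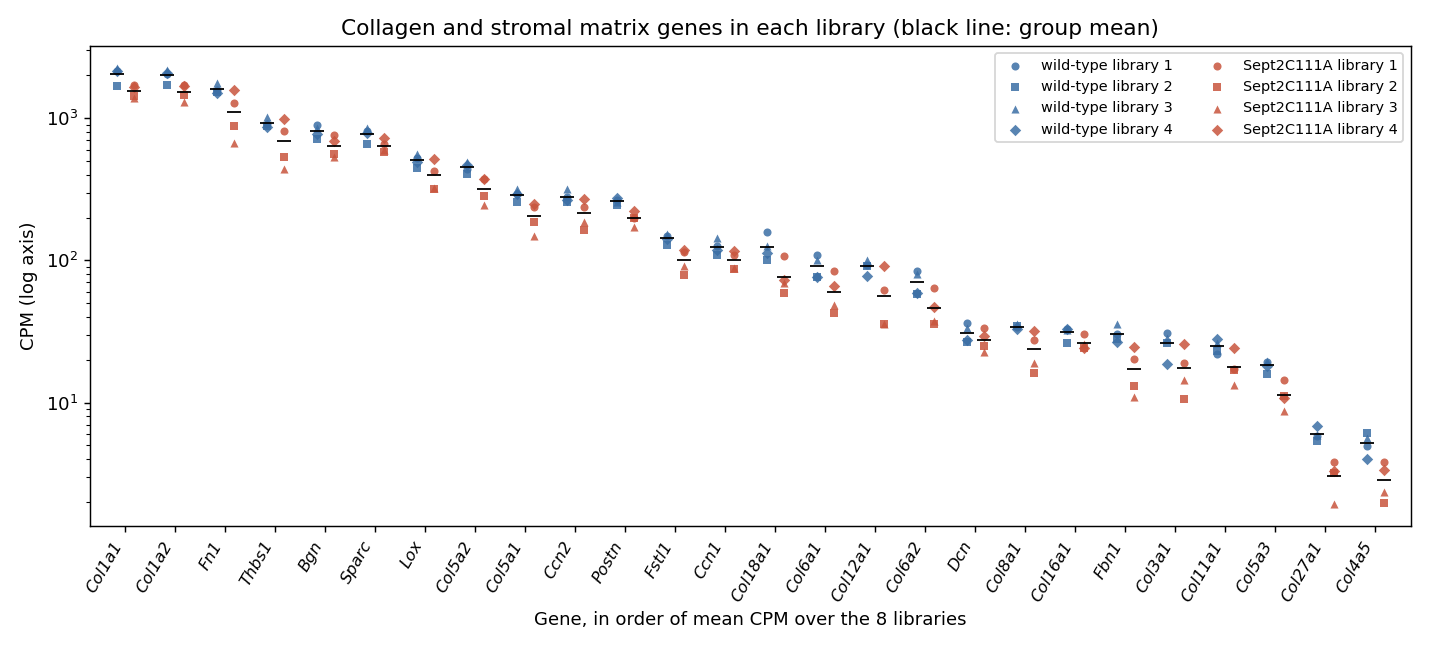
CPM on a log axis (vertical) of the 26 genes that were called or had a mean of at least 20 CPM (horizontal, in order of mean), with 1 point per library, the 4 wild-type libraries in blue and the 4 Sept2C111A libraries in red, and the group mean as a black line. Col1a1, at a wild-type mean of 2056 CPM, stands at the left and Col4a5, at 5.18 CPM, at the right.

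The sequence before the annotated start is printed for 3 called genes, Col18a1, Postn and Fstl1, and for Col1a2, the partner chain of Col1a1, so that the upstream DNA of genes that were low in the same libraries can be compared. Each is the 250 bases before the start, 5′ to 3′ on the gene's strand, from RefSeq on GRCm38.p6 (the mm10 build): Col1a2 at chr6:4505368-4505617 (plus strand), Col18a1 at chr10:77166531-77166780 (minus strand), Postn at chr3:54359017-54359266 (plus strand) and Fstl1 at chr16:37776805-37777054 (plus strand). Capitals mark CCAAT, the CCAAT box, GGGCGG, the GC box, and CAGAC, which holds the core of the SMAD-binding element, on either strand.
Col1a2: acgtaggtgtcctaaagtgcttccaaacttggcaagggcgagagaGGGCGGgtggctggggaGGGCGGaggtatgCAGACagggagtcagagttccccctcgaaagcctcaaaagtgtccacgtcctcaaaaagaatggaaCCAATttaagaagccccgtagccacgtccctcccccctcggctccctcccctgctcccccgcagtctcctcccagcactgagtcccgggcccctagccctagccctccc
Col18a1: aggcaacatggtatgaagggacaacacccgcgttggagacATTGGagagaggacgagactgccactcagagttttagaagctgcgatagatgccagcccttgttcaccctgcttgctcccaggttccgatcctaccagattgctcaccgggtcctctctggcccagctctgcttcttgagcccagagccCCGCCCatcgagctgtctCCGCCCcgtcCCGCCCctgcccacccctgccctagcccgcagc
Postn: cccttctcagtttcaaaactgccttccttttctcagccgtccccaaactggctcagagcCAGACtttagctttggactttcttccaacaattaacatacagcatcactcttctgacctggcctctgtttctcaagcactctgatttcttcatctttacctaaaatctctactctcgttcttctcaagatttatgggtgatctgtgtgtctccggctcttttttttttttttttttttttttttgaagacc
Fstl1: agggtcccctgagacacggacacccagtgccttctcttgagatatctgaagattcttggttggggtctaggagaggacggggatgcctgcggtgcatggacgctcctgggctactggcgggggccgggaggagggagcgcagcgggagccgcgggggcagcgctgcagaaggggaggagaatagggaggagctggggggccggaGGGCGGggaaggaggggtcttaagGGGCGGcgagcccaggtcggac

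Short motifs were searched on both strands of this window in the 27 tested genes of the group that had an entry. Of the sequences shown, Col1a2 holds all 3 marked motifs, Col18a1 holds the CCAAT box and the GC box, Postn holds the SMAD core and Fstl1 holds the GC box. The CCAAT box was found in 9 of the 27, or 33.3%, and in 36.9% of 9986 tested genes with an entry. The GC box was in 17 of the 27, or 63.0%, and in 58.9% of the tested genes. The TATA box (TATAAA) was in 3, or 11.1%, and in 6.46%, and a TEAD-type motif (CATTCC) in 3, or 11.1%, and in 10.2%. The SMAD core was in 15 of the 27, or 55.6%, and in 40.6% of tested genes. Of the genes called lower in edgeR, Postn and Col27a1 were among the 15. Col18a1, Fstl1, Fbn1, Col5a3 and Col4a5, also called, had an entry without the SMAD core, and Col1a1 and Col5a2 had no entry. A match is a description of letters, and the windows were not tested for binding.

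The other fibrillar collagens had smaller levels and in part larger falls. Type V joins type I in mixed fibrils and sets fibril width, and type III, from Col3a1, is the usual partner of type I in soft tissue. Col5a2 measured 441, 404, 491 and 467 CPM in wild-type libraries 1 to 4 and 376, 285, 247 and 372 CPM in Sept2C111A libraries 1 to 4. Col5a1 measured 292, 257, 317 and 295 CPM in wild-type libraries 1 to 4 and 236, 186, 148 and 251 CPM in Sept2C111A libraries 1 to 4. In both, all Sept2C111A libraries were below all wild-type libraries and Sept2C111A library 3 was lowest. Col5a2 fell (log2 fold change -0.49, SE 0.129, adjusted p = 0.047), while Col5a1 did not pass in edgeR (log2 fold change -0.50, SE 0.144, adjusted p = 0.064) and did in DESeq2 and in limma voom with sample weights. Col5a3 measured 19.4, 16.0, 19.8 and 18.0 CPM in wild-type libraries 1 to 4 and 14.4, 11.2, 8.75 and 10.8 CPM in Sept2C111A libraries 1 to 4. Its groups did not overlap and it fell (log2 fold change -0.69, SE 0.136, adjusted p = 0.015). Leaving out wild-type library 1 or 3 ended the call of Col5a3 (adjusted p 0.057 to 0.060), and leaving out any wild-type library, or library 2 or 3 of Sept2C111A, ended that of Col5a2 (adjusted p up to 0.15 over all alternatives that ended it).

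Col27a1, a fibrillar collagen of cartilage, had the largest fall of the 41. Col27a1 measured 5.87, 5.36, 5.89 and 6.87 CPM in wild-type libraries 1 to 4 and 3.83, 3.18, 1.93 and 3.31 CPM in Sept2C111A libraries 1 to 4. The lowest wild-type library stood well above the highest Sept2C111A library, and the fall (log2 fold change -0.96, SE 0.183, adjusted p = 0.013) was called at 0.05 in all 18 alternative fits, with an adjusted p of at most 0.046. Col3a1 measured 30.8, 26.4, 28.5 and 18.8 CPM in wild-type libraries 1 to 4 and 19.2, 10.5, 14.4 and 26.1 CPM in Sept2C111A libraries 1 to 4. Sept2C111A libraries 1 and 4 lay within the wild-type range for Col3a1, and the difference was not called (log2 fold change -0.57, SE 0.238, adjusted p = 0.17). Col11a1 measured 22.0, 22.9, 26.4 and 28.1 CPM in wild-type libraries 1 to 4 and 17.3, 16.96, 13.3 and 24.3 CPM in Sept2C111A libraries 1 to 4. It was not called in edgeR either (log2 fold change -0.47, SE 0.158, adjusted p = 0.10), but was called lower by DESeq2 and by limma voom with sample weights. Col11a2 was not called (log2 fold change -0.21, SE 0.0967, adjusted p = 0.20), although its genotypes did not overlap.

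Type I chains far exceeded the type III chain. On a TPM scale, in which counts are divided by transcript length, the wild-type levels were 769.6 ± 61.4 for Col1a2, 712 ± 75.6 for Col1a1, 139.9 ± 9.12 for Col5a2, 71.0 ± 4.87 for Col5a1 and 9.68 ± 1.96 for Col3a1. Col1a1 exceeded Col3a1 per length 76.6-fold ± 21.0 in wild-type and 90.1-fold ± 27.8 in Sept2C111A libraries, a difference smaller than the spread in either group. On the same scale Sparc (693 ± 63.2) and Bgn (689 ± 59.6) were close to Col1a1, within its spread, and Fn1 (394 ± 30.4), Thbs1 (324 ± 22.7), Ccn2 (232 ± 21.1) and Lox (219 ± 17.2) followed. Dcn stood at 36.2 ± 5.08 and Lum at 0.627 ± 0.0253, so that the 3 small proteoglycans of the group differed widely in level.

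Among basement membrane collagens, Col4a1, Col4a2 and Col4a5 were tested and 1 fell. Col4a5 measured 4.96, 6.11, 5.66 and 4.01 CPM in wild-type libraries 1 to 4 and 3.83, 1.96, 2.34 and 3.36 CPM in Sept2C111A libraries 1 to 4. Col4a5 fell with no overlap between the groups (log2 fold change -0.84, SE 0.213, adjusted p = 0.041), a call that ended when wild-type library 1, 2 or 3, or library 2 or 3 of Sept2C111A, was left out (adjusted p up to 0.16 over all alternatives that ended it). Col4a1 and Col4a2, the chains of the common type IV network, lie head to head on chromosome 8 and overlap at their starts in the RefSeq annotation (11198423 to 11312889 and 11312805 to 11449287, mm10), so reads of the shared stretch cannot be told apart without strand. Col4a1 was at 12.4 ± 0.965 and 7.56 ± 3.38 CPM and Col4a2 at 15.4 ± 0.573 and 10.8 ± 3.47 CPM in wild type and Sept2C111A, and neither was called in edgeR (log2 fold change -0.71, SE 0.242, adjusted p = 0.10 for Col4a1, adjusted p = 0.10 for Col4a2). DESeq2 and limma voom with sample weights called both lower. Col4a3, Col4a4 and Col4a6 had too few reads to be tested.

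Col18a1 and Col15a1 encode multiplexins, proteoglycans next to basement membranes. Col18a1 measured 158, 101, 127 and 112 CPM in wild-type libraries 1 to 4 and 107, 58.6, 69.9 and 72.5 CPM in Sept2C111A libraries 1 to 4. Col18a1 fell (log2 fold change -0.69, SE 0.181, adjusted p = 0.047), although Sept2C111A library 1 lay above wild-type library 2. The call ended when any wild-type library, or library 2 or 3 of Sept2C111A, was left out (adjusted p up to 0.19 over all alternatives that ended it). Col15a1 was at 1.42 ± 0.230 and 1.29 ± 0.235 CPM and was not called.

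Type VI collagen forms beaded filaments around cells, and all 3 of its tested chains had negative fold changes, of -0.59 to -0.61, without a call in edgeR. Col6a1 measured 109.6, 76.5, 101 and 76.9 CPM in wild-type libraries 1 to 4 and 84.4, 42.8, 48.4 and 66.1 CPM in Sept2C111A libraries 1 to 4. Col6a2 measured 83.7, 57.7, 79.7 and 59.2 CPM in wild-type libraries 1 to 4 and 64.1, 35.6, 37.3 and 46.7 CPM in Sept2C111A libraries 1 to 4. In both, Sept2C111A library 1 was inside the wild-type range and the other 3 were below it, and the wild-type libraries themselves fell into a higher pair (1 and 3) and a lower pair (2 and 4). The adjusted p was 0.099 for Col6a1, 0.076 for Col6a2 and 0.22 for Col6a3, which measured 6.34 ± 0.473 and 4.14 ± 2.06 CPM in the 2 genotypes. DESeq2 called Col6a1 (adjusted p = 0.031) and Col6a2 (adjusted p = 0.017) lower.

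Fibril-associated collagens coat fibrils, and type VIII forms sheets under vessels. Col12a1 measured 92.4, 91.7, 101 and 77.6 CPM in wild-type libraries 1 to 4 and 62.2, 35.6, 35.7 and 92.0 CPM in Sept2C111A libraries 1 to 4. Sept2C111A libraries 2 and 3 of Col12a1 lay far below all others and library 4 at a wild-type level, and the difference was not called (log2 fold change -0.68, SE 0.260, adjusted p = 0.14). Col16a1 measured 33.0, 26.4, 32.3 and 32.9 CPM in wild-type libraries 1 to 4 and 30.3, 24.1, 25.7 and 24.3 CPM in Sept2C111A libraries 1 to 4. Col8a1 measured 33.8, 34.7, 35.5 and 32.9 CPM in wild-type libraries 1 to 4 and 27.6, 16.1, 18.9 and 32.1 CPM in Sept2C111A libraries 1 to 4. For Col8a1 the 4 wild-type libraries were close together and all Sept2C111A libraries lower, yet it did not pass in edgeR (log2 fold change -0.53, SE 0.177, adjusted p = 0.098), while DESeq2 and limma voom with sample weights called it lower. Col16a1 did not pass in any of these tools (log2 fold change -0.25, SE 0.0985, adjusted p = 0.14 in edgeR). Of the 7 fibril-associated genes tested, 0 were called in edgeR (1 was higher and 2 were lower at an unadjusted p under 0.05), while limma voom with sample weights called Col12a1 lower and DESeq2 called 0.

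Matrix glycoproteins included 3 of the 9 calls. Postn encodes periostin, a protein that links collagen to other matrix, and Fstl1 a secreted follistatin-like glycoprotein. Postn measured 267, 244, 257 and 273 CPM in wild-type libraries 1 to 4 and 199, 197, 171 and 223 CPM in Sept2C111A libraries 1 to 4. Fstl1 measured 148, 128, 154 and 141 CPM in wild-type libraries 1 to 4 and 115, 78.8, 91.6 and 119 CPM in Sept2C111A libraries 1 to 4. In both, every Sept2C111A library was below every wild-type library, and both fell (log2 fold change -0.40, SE 0.0813, adjusted p = 0.018 for Postn, and log2 fold change -0.50, SE 0.122, adjusted p = 0.036 for Fstl1). Fbn1 measured 30.3, 27.9, 35.8 and 26.5 CPM in wild-type libraries 1 to 4 and 20.2, 13.1, 10.9 and 24.4 CPM in Sept2C111A libraries 1 to 4. Fbn1, for the microfibril protein fibrillin 1, also fell without overlap (log2 fold change -0.81, SE 0.215, adjusted p = 0.049). Leaving out wild-type library 1, 3 or 4, or library 2 of Sept2C111A, ended the call of Postn (adjusted p 0.056 to 0.069). The calls of Fstl1 and Fbn1 ended with any wild-type library, or library 2 or 3 of Sept2C111A, left out, and that of Fbn1 also without library 1 (adjusted p up to 0.12 and 0.15 over all alternatives that ended them).

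Fibronectin, thrombospondin 1 and the collagen-binding protein SPARC were abundant and not called in edgeR. Fn1 measured 1584, 1517, 1776 and 1494 CPM in wild-type libraries 1 to 4 and 1275, 879, 669 and 1577 CPM in Sept2C111A libraries 1 to 4. Thbs1 measured 913, 889, 1014 and 866 CPM in wild-type libraries 1 to 4 and 815, 537, 439 and 984 CPM in Sept2C111A libraries 1 to 4. Sparc measured 810.0, 654, 849 and 789.9 CPM in wild-type libraries 1 to 4 and 660.1, 578, 596 and 721 CPM in Sept2C111A libraries 1 to 4. For Fn1 and Thbs1, Sept2C111A library 4 was inside the wild-type range and library 3 was the lowest, and the coefficient of variation was 36.8% and 36.2% in Sept2C111A against 8.03% and 7.09% in wild type. The adjusted p was 0.15 for Fn1 (log2 fold change -0.53), 0.25 for Thbs1 (-0.41) and 0.11 for Sparc (-0.28). Limma voom with sample weights called Fn1 and Sparc lower (adjusted p = 0.032 for both), and DESeq2 called none of the 3.

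Small leucine-rich proteoglycans bind collagen fibrils and growth factors, and 0 of 3 were called in edgeR (1 at an unadjusted p under 0.05, and 1, Bgn, by DESeq2). Bgn measured 892, 713, 858 and 776.7 CPM in wild-type libraries 1 to 4 and 759.8, 557, 531 and 688 CPM in Sept2C111A libraries 1 to 4. Dcn measured 36.3, 26.8, 33.4 and 27.4 CPM in wild-type libraries 1 to 4 and 33.5, 24.9, 22.6 and 29.5 CPM in Sept2C111A libraries 1 to 4. Biglycan (Bgn) had 3 of 4 Sept2C111A libraries below the wild-type range (log2 fold change -0.35, SE 0.119, adjusted p = 0.098), and decorin (Dcn) had 2, with the smallest difference of the 26 named genes (log2 fold change -0.16, SE 0.134, adjusted p = 0.48). Lum, for lumican, was at 0.745 ± 0.0206 and 0.617 ± 0.201 CPM in the 2 genotypes. Lox encodes lysyl oxidase, which crosslinks collagen and elastin. Lox measured 524, 448, 559 and 493 CPM in wild-type libraries 1 to 4 and 427, 318, 321 and 516 CPM in Sept2C111A libraries 1 to 4. Sept2C111A library 4 was inside the wild-type range, and Lox was not called in edgeR (log2 fold change -0.35, SE 0.145, adjusted p = 0.16), while limma voom with sample weights called it lower (adjusted p = 0.037).

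CCN proteins are secreted matrix proteins induced by TGF-β and mechanical load. Ccn2 measured 281, 257, 319.7 and 265 CPM in wild-type libraries 1 to 4 and 238, 163, 185 and 269 CPM in Sept2C111A libraries 1 to 4. Ccn1 measured 126, 109, 143 and 119 CPM in wild-type libraries 1 to 4 and 109, 87.6, 87.8 and 117 CPM in Sept2C111A libraries 1 to 4. In both genes the 3 Sept2C111A libraries other than library 4 lay below the wild-type range, and neither was called in edgeR (log2 fold change -0.39, SE 0.142, adjusted p = 0.12 for Ccn2, and log2 fold change -0.31, SE 0.112, adjusted p = 0.12 for Ccn1). Limma voom with sample weights called Ccn2 lower (adjusted p = 0.037). The 2 receptors for platelet-derived growth factor, markers of mesenchymal cells, were low. Pdgfrb was at 18.9 ± 1.69 and 11.1 ± 4.09 CPM with no overlap between the genotypes (adjusted p = 0.059 in edgeR, and called lower by DESeq2 and by limma voom with and without sample weights), and Pdgfra at 4.67 ± 0.850 and 3.64 ± 1.18 CPM with overlap (adjusted p = 0.34).

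Both genes with a positive fold change, Col2a1 and Col9a3, belong to cartilage collagens, but cartilage collagens did not share a direction. Col27a1, also a collagen of cartilage, had the largest fall of the group (log2 fold change -0.96). Col2a1, of type II, ranged from 0.811 to 2.62 CPM in wild-type and from 1.27 to 4.398 CPM in Sept2C111A libraries (log2 fold change 0.71, SE 0.440, adjusted p = 0.34). Col9a3, of type IX, was at 1.29 ± 0.378 and 1.94 ± 0.503 CPM (log2 fold change 0.58, SE 0.262, adjusted p = 0.20). Neither was called, and the genotypes overlapped in both genes. The most abundant member of the mixed group of types VII, XXVI and XXVIII was Col7a1, the anchoring fibril collagen, at 2.46 ± 0.246 and 2.07 ± 0.532 CPM. The 16 untested genes had at most 14 counts in any library, which was 0.660 CPM, and 10 of them were at 0 in at least 1 library. They included all 4 transmembrane collagens, of which Col23a1 was the most abundant, at 0.308 ± 0.150 and 0.293 ± 0.0946 CPM.

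The Sept2C111A libraries differed among themselves more than the wild-type libraries did. Over the 26 genes named for a call or a mean of at least 20 CPM, the median coefficient of variation was 10.4% in wild type and 23.5% in Sept2C111A, and it was larger in Sept2C111A for 24 of the 26. The median log2 difference of the 41 tested genes from the wild-type mean was -0.24, -0.67, -0.66 and -0.21 in Sept2C111A libraries 1 to 4. Libraries 2 and 3 were thus far lower than libraries 1 and 4. Of the 41 genes, 24, 37, 35 and 21 lay below the lowest wild-type library in Sept2C111A libraries 1 to 4, beside 23.7%, 34.5%, 38.3% and 30.7% of all tested genes. Library 2 or 3 was the lowest Sept2C111A library in 38 of the 41. Without libraries 2 and 3, 3 of 42 tested genes of the group were called, all lower (Col27a1, Col5a3 and Postn), beside 1.65% of all tested genes. The median log2 fold change of the group was then -0.23. Leaving out the 2 lowest libraries moves this median towards 0 by construction, so it is no test of the fall.

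**Figure D3:**
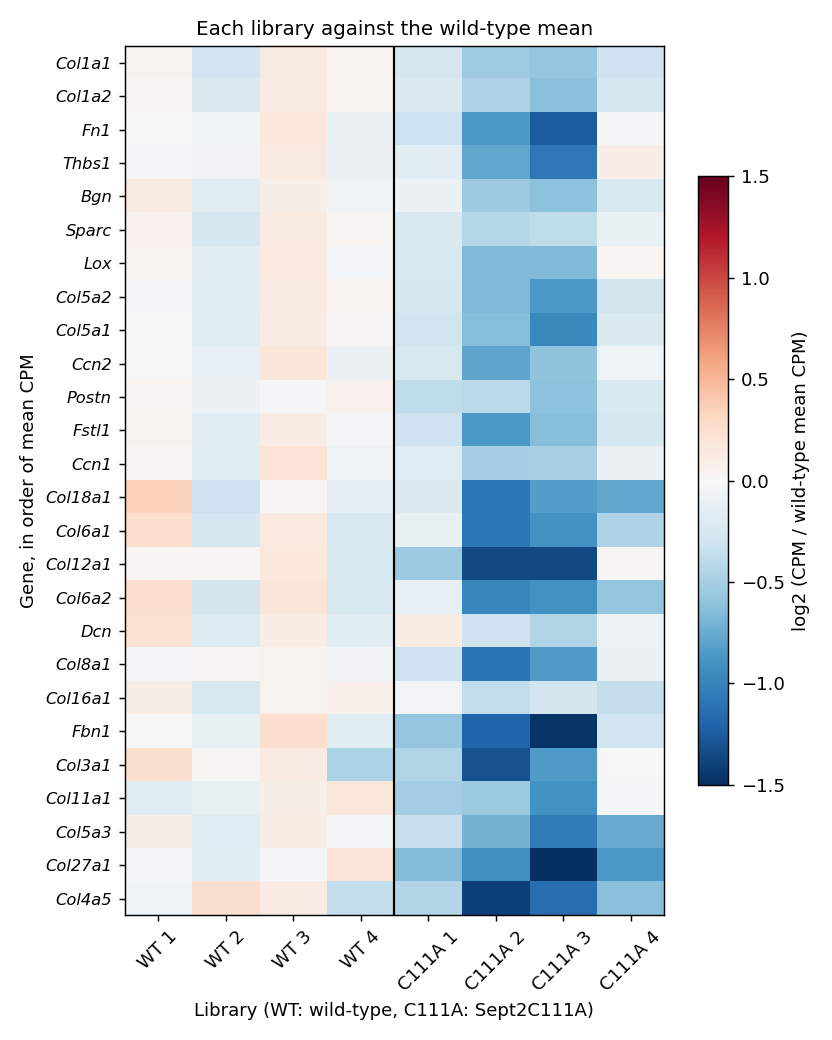
Log2 of CPM over the wild-type mean (colour, blue for lower and red for higher) for the 26 named genes (rows, in order of mean CPM) in each of the 8 libraries (columns, wild type left of the line). Sept2C111A libraries 2 and 3 are blue in nearly all rows, and in library 4 Fn1, Thbs1, Lox and Col12a1 are close to white.

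Transcript length moved with the libraries too. These genes are long: the median of the longest coding transcript was 5564 nucleotides over the 41, against 3151 over tested genes, and 25 of the 41 were in the longest 20% of tested genes. Over all tested genes in that class, the median log2 difference from the wild-type mean was -0.04, -0.10, -0.26 and 0.10 in Sept2C111A libraries 1 to 4, and in the shortest 20% it was 0.06, 0.12, 0.32 and -0.07. Sept2C111A library 3 was therefore low and library 4 high in long transcripts in general. Across the 41 genes, Spearman's rho of length with the log2 ratio of Sept2C111A library 4 to library 3 was 0.38, and with the log2 fold change it was -0.42, a description over genes that share the same libraries. With the trend on length and GC content removed from every library, an alternative chosen after the data were seen, the median log2 fold change was -0.39 and 15 of the 41 were called, all lower, the 9 among them. In that fit 6.25% of 12317 tested genes were called lower.

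**Figure D4:**
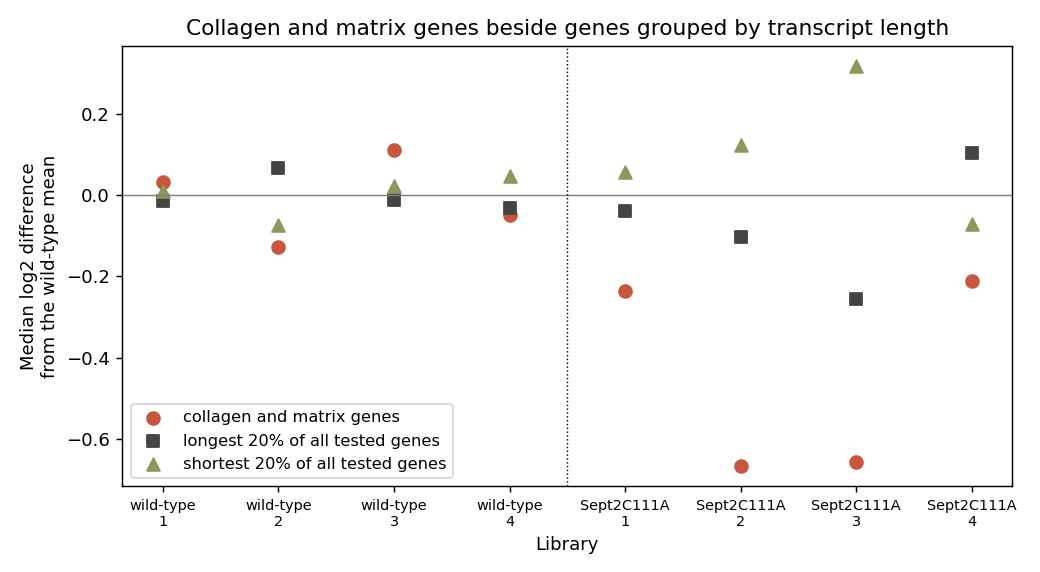
Median log2 difference from the wild-type mean (vertical axis) in each library (horizontal axis) for the 41 tested genes (circles), the longest 20% of all tested genes (squares) and the shortest 20% (triangles). In every Sept2C111A library the circles lie below both other symbols, and the long genes lie above 0 in library 4.

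Genes that make and process collagen were examined as a list of 27, of which 24 were tested, 5 fell and 0 rose in edgeR, with a median log2 fold change of -0.35. These counts, and those of the other lists, stand against 3.03% of all tested genes called lower and 3.43% called higher. DESeq2, which called 5.99% of all tested genes lower, called 12 of this list lower and 1, Plod1, higher. Loxl1, a lysyl oxidase relative, went from 40.1 ± 3.80 to 26.7 ± 4.17 CPM (log2 fold change -0.58, SE 0.112, adjusted p = 0.013). The prolyl hydroxylase gene P3h1 went from 44.5 ± 2.81 to 34.5 ± 2.72 CPM and Fkbp10, an endoplasmic reticulum chaperone gene for collagen, from 91.0 ± 9.88 to 68.1 ± 6.80 CPM. P3h4 and Bmp1, the latter a procollagen proteinase gene, were the others (adjusted p = 0.036 and 0.041). Serpinh1, for the collagen chaperone HSP47, was the most abundant of the list at 314 ± 33.4 and 249.8 ± 26.1 CPM and did not pass in edgeR (adjusted p = 0.065), but was called lower by DESeq2. Plod1 and Ppib, a lysyl hydroxylase and a proline isomerase gene of the list, had positive fold changes of 0.20 and 0.10 without a call in edgeR. Both were named after their values were seen.

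In the TGF-β list, which holds ligands, receptors, SMADs and targets of a pathway known to raise collagen expression, 3 of 18 tested genes fell and 0 rose in edgeR, beside the 3.03% and 3.43% of all tested genes, with a median of -0.18. The 3 were the ligand genes Tgfb3 (from 19.9 ± 2.47 to 12.2 ± 2.70 CPM) and Tgfb2 (from 29.5 ± 2.56 to 22.0 ± 3.20 CPM) and the latent-form binding gene Ltbp1 (from 25.6 ± 2.38 to 19.3 ± 2.54 CPM), all with no overlap between the groups. Tgfb1, the most abundant ligand gene, was at 594 ± 7.50 and 627 ± 48.2 CPM and was not called. Of 26 tested genes of other matrix proteins, 4 fell and 0 rose in edgeR, with a median of -0.33. DESeq2 called 8 of them lower and limma voom with sample weights 11, beside 5.99% and 5.44% of all tested genes. Both tools called 1 of them higher, Ccn3, a CCN protein gene. Mfap2, for a microfibril protein, went from 1.85 ± 0.332 to 0.978 ± 0.130 CPM, Fbln5, for an elastic fibre protein, from 13.7 ± 0.873 to 8.73 ± 2.12 CPM, and Tnc, for tenascin C, from 261 ± 28.8 to 153 ± 48.1 CPM, the fourth being Lamb1. In the list of collagen receptors, uptake genes and PDGF ligands, 2 of 12 fell and 0 rose. They were Pdgfb, a ligand gene of the PDGF receptors (from 97.9 ± 6.69 to 74.2 ± 7.77 CPM), and Mrc2, an endocytic collagen receptor of mesenchymal cells (from 101 ± 7.94 to 71.0 ± 12.04 CPM). The other PDGF ligand genes of the list were not called. Mrc1, the macrophage mannose receptor that also takes up collagen, was at 421 ± 11.6 and 400.2 ± 65.03 CPM and was named after its values were seen.

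Markers of other cell types were measured beside these results. Of 14 fibroblast identity genes, 8 were tested, 1 fell and all 8 had a negative fold change (median -0.41), where 3.03% of all tested genes were called lower and 48.2% had a negative fold change. At an unadjusted p under 0.05, 5 of the 8 were lower and 0 higher, beside 12.5% and 12.3% of all tested genes. The fibroblast gene called in edgeR was Ddr2, a collagen receptor (28.6 ± 2.12 to 19.7 ± 4.22 CPM). Their summed level was 174 to 199.6 CPM in wild-type and 111.4 to 181 CPM in Sept2C111A libraries, while Thy1, Twist2, Tcf21, Mfap4, Dpt and Clec3b were under 1 CPM in all 8 libraries. Of 11 smooth muscle and pericyte genes, 9 were tested, 4 fell and 0 rose (median -0.60), beside 3.03% and 3.43% of all tested genes. At an unadjusted p under 0.05, 8 of the 9 were lower and 0 higher. All 9 had a negative fold change, and the summed level was 1262 to 1682 CPM in wild-type and 745 to 1149 CPM in Sept2C111A libraries, without overlap. The sums of the macrophage identity, TGF-β and marrow reticular lists did not overlap either, with Sept2C111A lower. That of the endothelial list did not overlap with Sept2C111A higher. Acta2, for smooth muscle actin, went from 1016 ± 121 to 659 ± 112 CPM, Tagln from 322 ± 39.9 to 212 ± 37.7 CPM and Myl9 from 64.9 ± 6.33 to 42.7 ± 9.06 CPM, and Tpm2 was the fourth, while Rgs5, Myh11 and Des were under 1 CPM in all libraries. The part of fibroblast and smooth muscle markers in the matrix result was not tested.

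Of 7 marrow reticular and fat cell genes, 5 were tested and 0 called in edgeR (2 lower at an unadjusted p under 0.05 and 2 lower in DESeq2), with a median of -0.48 and a sum of 84.6 to 105 CPM in wild-type and 48.7 to 82.9 CPM in Sept2C111A libraries. Cxcl12, the chemokine gene of marrow reticular cells, made up most of the sum, at 83.2 ± 7.97 and 59.7 ± 15.6 CPM. For this list and the next, 12.5% of all tested genes were lower and 12.3% higher at an unadjusted p under 0.05, and DESeq2 called 5.99% lower. Osteoblast and chondrocyte genes went the other way in median (0.26 over 8 tested, 0 called in edgeR, 1 lower and 1 higher at an unadjusted p under 0.05, 0 in DESeq2), with sums of 38.3 to 52.0 CPM in wild-type and 44.7 to 60.3 CPM in Sept2C111A libraries, and Alpl the most abundant, at 17.2 ± 2.91 and 16.3 ± 3.66 CPM. Endothelial genes summed to 6.65 to 7.54 CPM in wild-type and 7.84 to 8.51 CPM in Sept2C111A libraries. In that list Pecam1, which some leukocytes also express, rose (2.92 ± 0.0968 to 4.02 ± 0.216 CPM), and 8 of 10 endothelial genes were under 1 CPM in all libraries. Of 5 epithelial genes only Krt19, at 6.22 ± 0.852 and 5.09 ± 1.15 CPM, was above 1 CPM in any library.

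The 20 calls in the pathway and marker lists, 19 lower and Pecam1 higher, leaned on single libraries as those of the matrix genes did. Without wild-type library 1, 0 of the 20 remained called, without wild-type library 3 only Mfap2, and without wild-type library 4 only Acta2, Loxl1 and Pdgfb. Without library 2 of Sept2C111A, 5 remained: Acta2, Tagln, Myl9, Loxl1 and Tgfb3. With wild-type library 2 or library 3 of Sept2C111A left out, 13 remained in each case, and 17 and 20 remained without libraries 1 and 4 of Sept2C111A. Calls over all tested genes moved as well, so the losses were not particular to these lists. From 805 with all 8 libraries they went to 281, 475, 266 and 376 without wild-type libraries 1 to 4. Without Sept2C111A libraries 1 to 4 they were 975, 361, 713 and 2077.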

How the data were processed

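RNA of BMDMs was measured in 8 libraries, 4 wild-type and 4 Sept2C111A, grouped by their titles. Per the labels' protocols, the extraction text covers aortic tissue as well as BMDMs, while every sample is labelled BMDMs. The values analysed are expected counts per gene as deposited by the authors. Tools listed without roles, per the submitters' processing notes, are RSEM 1.3.1, Bowtie2 and DESeq2 1.4.5, and the build is mm10. Whether strand was used, and which annotation, is not given in the sources used here.

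Expected counts were rounded to whole numbers and tested with edgeR 4.0.16 (quasi-likelihood test, TMM, filterByExpr with a minimum count of 10) in R 4.3.3, genotype being the only term, with Benjamini-Hochberg adjustment over 12462 genes and a threshold of 0.05. The design was unpaired. DESeq2 1.42.0 and limma 3.58.1 served as alternatives, beside other scaling, filters and left-out libraries. Levels are CPM on TMM-scaled library sizes. Levels compared between genes are divided by the longest coding transcript of GENCODE. Gene positions and the printed sequences are from RefSeq on GRCm38.p6, where 41 of the 57 genes had a promoter entry. On simulated counts, 97% of genes changed by 1 on the log2 scale and 69% of those changed by 0.5 were called, with 10 false calls among 12388 tested genes. The simulation gave every gene a coefficient of variation of 0.1 beyond counting error, in both genotypes. In Sept2C111A the measured median over the 26 named genes was 23.5%, so these rates may not hold for the measured libraries.

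The genes, the marker and pathway lists and the alternatives were chosen with earlier results of these data known. Library values are given for every gene that was called or had a mean of at least 20 CPM. The others are given by range and counts, with the most abundant of each class. From a list, the text names up to 3 called genes in order of adjusted p, and where none was called the gene of highest level. Totals differed little between libraries, from 19543973 to 21288521 counts.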

Additional observations from a re-analysis of the deposited data

Results flagged for a closer look

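Of 64 groups of 4 library values checked (the 26 named genes, and sums and ratios over the group, in each genotype), 1 held a library far from the other 3. Col16a1, a fibril-associated collagen, measured 26.4 CPM in wild-type library 2, and its distance to the nearest other wild-type library was 0.893 of the group's range, above Dixon's 95% critical value for 4 values. Chance marks about 1 in 20 such groups. Col16a1 was not called between the genotypes.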

How the results depend on the processing

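Of the 41 tested genes, 9 were called lower. The count was 0 at an adjusted p under 0.01, 4 with plain library totals, 19 in DESeq2, 21 in limma voom with sample weights, 3 without Sept2C111A libraries 2 and 3, and 15 with the length and GC trend removed. Leaving out 1 library gave 1 to 27. All genes called numbered 805 in edgeR, 220 at an adjusted p under 0.01, 1450 in DESeq2, 1343 with sample weights, 492 without Sept2C111A libraries 2 and 3, 1562 with the length and GC trend removed, and 266 (without wild-type library 3) to 2077 (without Sept2C111A library 4) with 1 library left out. The cause of these shifts was not tested, apart from the stricter threshold. Leaving out Sept2C111A libraries 2 and 3, the lowest for these genes, made the fall smaller by construction. A gene of the group was called higher in 0 of the alternatives, and the median log2 fold change stayed negative, between -0.57 and -0.23. Dcn changed sign, to 0.026, without Sept2C111A libraries 2 and 3.

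The replicate numbers did not pair the libraries: the correlations of same-numbered deviations were 0.137, 0.0956, -0.023 and -0.237. With a replicate block, 6 genes of the group were called lower, 5 of them among the 9, and 494 genes were called in all.

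The 16 untested genes had at most 14 counts in a library, so differences in them were not detectable at this depth. Gene counts do not show which cells of a culture held the RNA.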
